A study of Mus musculus with 18 samples.

Results

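The EGF receptor family and its ligands were followed across 18 messenger RNA libraries of sorted mouse thyroid cells. The 10 genes were taken by symbol from the deposited expression table, 10 of its 23626 genes used here, whatever their level. They comprise the 4 receptors EGFR, ERBB2, ERBB3 and ERBB4 and the 6 ligands AREG, EREG, HBEGF, TGFA, BTC and NRG1. By their labels, all 18 were treatment-naive thyrocytes collected at 20 weeks and sorted by YFP, a fluorescent reporter, with thyroid tumour as the source name even for the pools. BrafV600E, which locks this Raf-family kinase in its active form, was the only engineered allele named for 4 tumour libraries (Braf tumours). Another 7 carried BrafV600E with Tert-123C>T, a change in the promoter of Tert, the catalytic subunit of telomerase (Tert-123 tumours), and 4 carried BrafV600E with K5-Tert (K5-Tert tumours). The other 3 libraries lacked the Braf mutation and were pools: wild type, Tert-123C>T and K5-Tert. K5 refers to the keratin 5 promoter, which drives the Tert transgene and is best known from basal epithelial cells, so its activity in thyrocytes is a limit of that model. Each pool is 1 library of several samples, so no spread can be given within a pool genotype. The driver of the Braf allele and of YFP, the sex of the mice and the number of mice in a pool are not in the labels used here. Whether libraries came from different mice is not given either, so p-values measure only the spread between these libraries.

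EGFR, ERBB3 and ERBB4 are cell-surface receptors that bind growth factors of the EGF type, and ERBB2 has no known ligand of its own but is the preferred partner of the others. ERBB3 has little kinase activity and signals mainly through such partners. The ligands are made as membrane-bound precursors that proteases of the ADAM family cut loose. AREG, EREG, HBEGF, TGFA and BTC bind EGFR, and HBEGF, EREG and BTC also bind ERBB4, while NRG1 binds ERBB3 and ERBB4. Downstream, Ras, Raf and ERK carry the signal, and BrafV600E acts at the Raf step. ERK activity in turn raises brakes such as the DUSP and SPRY genes, and in thyroid cancer cells treated with Raf inhibitors, signalling through ERBB2 and ERBB3 is a known route of adaptation.

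Levels are given as TPM, a transcript abundance scaled for transcript length and to a fixed total per library, so levels of different genes can be set side by side. The read depth behind the values is unknown, so intervals for counting error are not given. The sorted cells were checked against 12 thyrocyte genes: their summed level was 26950 to 33430 TPM in the pools and 412 to 1335 TPM in the tumours, and thyroglobulin (TG), the defining marker, was present in every library. XIST, the RNA of the inactive X chromosome in females, was 63.9 to 89.9 TPM in the Braf tumours, 0 to 88.1 TPM in the Tert-123 tumours, 0 to 52.5 TPM in the K5-Tert tumours and 1.29 to 43.2 TPM in the pools, so it was not balanced between groups. Tert overlapped between Braf tumours (3.78 to 5.12 TPM) and Tert-123 tumours (2.65 to 6.23 TPM) and was higher in each K5-Tert tumour (11.2 to 73.9 TPM). In the wild-type, Tert-123C>T and K5-Tert pools Tert was 2.15, 8.79 and 125 TPM. K5-Tert tumours 2, 3 and 4 stood apart by the nuclear RNA MALAT1, with 1191, 1908 and 1050 TPM against 5072 to 8420 TPM in the other 12 tumours. Marker RNA of other cells was present in tumours and pools. In the tumours, 14 macrophage genes summed to 243 to 5645 TPM, beside 412 to 1335 TPM for the 12 thyrocyte genes. In the pools the macrophage sum was 69.9 to 343 TPM. The Tert-123C>T pool also held PTH, the parathyroid hormone, at 632 TPM (27.8 TPM or less in the other pools), CD3G of T cells at 96.2 TPM (listed at 0 in the other pools) and CALCA, calcitonin of C cells, at 1144 TPM (191 and 336 TPM in the other pools). The 10 T cell genes matched by name summed to 195 TPM in that pool, with 2 of them at 0.

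The promoter windows of 4 members whose levels differed between tumours and pools are shown here, to set the sequences beside the levels described further on. Of the 10 members, 6 matched an entry in the RefSeq promoter table of GRCm38.p6 (Egfr, Erbb2, Erbb4, Areg, Tgfa and Btc). Each window is the 250 bases before the annotated start, 5′ to 3′ on the gene's own strand. Capitals mark matches, on either strand, to TGANTCA (an AP-1 motif), TGACGTCA (a cyclic AMP response element), AGGAAG (a core bound by ETS factors of the PEA3 group) or TATAA, a motif list chosen after the sequences were seen. The Areg window lies at chr5:91139349-91139598 on the plus strand, the Erbb2 window at chr11:98412234-98412483 on the plus strand, the Egfr window at chr11:16751953-16752202 on the plus strand and the Erbb4 window at chr1:69108060-69108309 on the minus strand.
Areg: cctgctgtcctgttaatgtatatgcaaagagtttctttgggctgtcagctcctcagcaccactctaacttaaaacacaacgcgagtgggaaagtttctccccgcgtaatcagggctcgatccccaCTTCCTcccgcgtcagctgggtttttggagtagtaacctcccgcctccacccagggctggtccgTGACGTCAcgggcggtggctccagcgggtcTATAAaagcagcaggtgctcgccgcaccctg
Erbb2: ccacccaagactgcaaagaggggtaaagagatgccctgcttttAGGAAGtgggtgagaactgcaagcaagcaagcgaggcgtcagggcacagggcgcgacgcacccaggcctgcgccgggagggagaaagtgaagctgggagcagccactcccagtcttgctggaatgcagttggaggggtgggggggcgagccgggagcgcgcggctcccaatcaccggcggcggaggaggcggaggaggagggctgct
Egfr: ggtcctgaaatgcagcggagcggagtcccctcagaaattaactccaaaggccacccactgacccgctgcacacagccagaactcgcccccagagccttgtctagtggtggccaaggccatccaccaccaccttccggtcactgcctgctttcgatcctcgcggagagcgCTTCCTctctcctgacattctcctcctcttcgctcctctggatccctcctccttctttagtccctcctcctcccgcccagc
Erbb4: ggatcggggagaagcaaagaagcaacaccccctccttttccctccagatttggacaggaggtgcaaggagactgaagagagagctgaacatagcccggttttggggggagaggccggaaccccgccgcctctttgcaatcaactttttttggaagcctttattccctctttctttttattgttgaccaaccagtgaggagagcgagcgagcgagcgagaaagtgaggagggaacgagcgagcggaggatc

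Areg, the ligand with the highest mean level in the tumours, had 3 matches: the PEA3-type core as CTTCCT from 125 bases before the start, TGACGTCA from 61 bases before it and TATAA from 31 bases before it. Erbb2 held AGGAAG from 207 bases before its start and Egfr held CTTCCT from 81 bases before its start, while the Erbb4 window held none of the 4 motifs. No match overlapped another. Among all 32851 windows of this length in the table, 29.5% held AGGAAG or its complement, 22.8% held TATAA or its complement, 6.75% held TGANTCA and 1.55% held TGACGTCA. Such matches are letters in a window. They were not tested as binding sites.

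In the tumours, the 10 members spanned levels from below 1 TPM to about 191 TPM, and 5 of them made up most of the receptor and ligand RNA. AREG (amphiregulin) had the highest mean, 113 ± 37.5 TPM (SD, n = 15), and exceeded HBEGF in each of the 15 tumours. HBEGF (heparin-binding EGF-like growth factor) and the receptor ERBB3 followed at 50.4 ± 17.9 and 49.4 ± 18.1 TPM and could not be ordered, since HBEGF was the higher of the pair in 6 of 15 tumours. ERBB3 exceeded ERBB2 (38.8 ± 14.1 TPM) in 15 of 15 tumours, although their ranges overlapped. EREG (epiregulin, 38.0 ± 13.7 TPM) and ERBB2 could not be ordered either, with ERBB2 higher in 8 of 15. Below a gap with no overlap came TGFA (transforming growth factor alpha, 6.81 ± 2.85 TPM), NRG1 (neuregulin 1, 4.39 ± 1.81 TPM), BTC (betacellulin, 4.18 ± 1.52 TPM) and EGFR itself (4.11 ± 2.37 TPM). The order of the last 3 changed from tumour to tumour. ERBB4 was the lowest member in every tumour group, at 0.356 ± 0.266 TPM.

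The pools had another order. HBEGF stood first in each, and EREG, which is high in tumours, stood last in each. EGFR was nearer to ERBB2 there: the ratio of ERBB2 to EGFR was 1.07 to 1.81 in the pools and 2.15 to 41.0 in the tumours, without overlap.

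**Figure D1:**
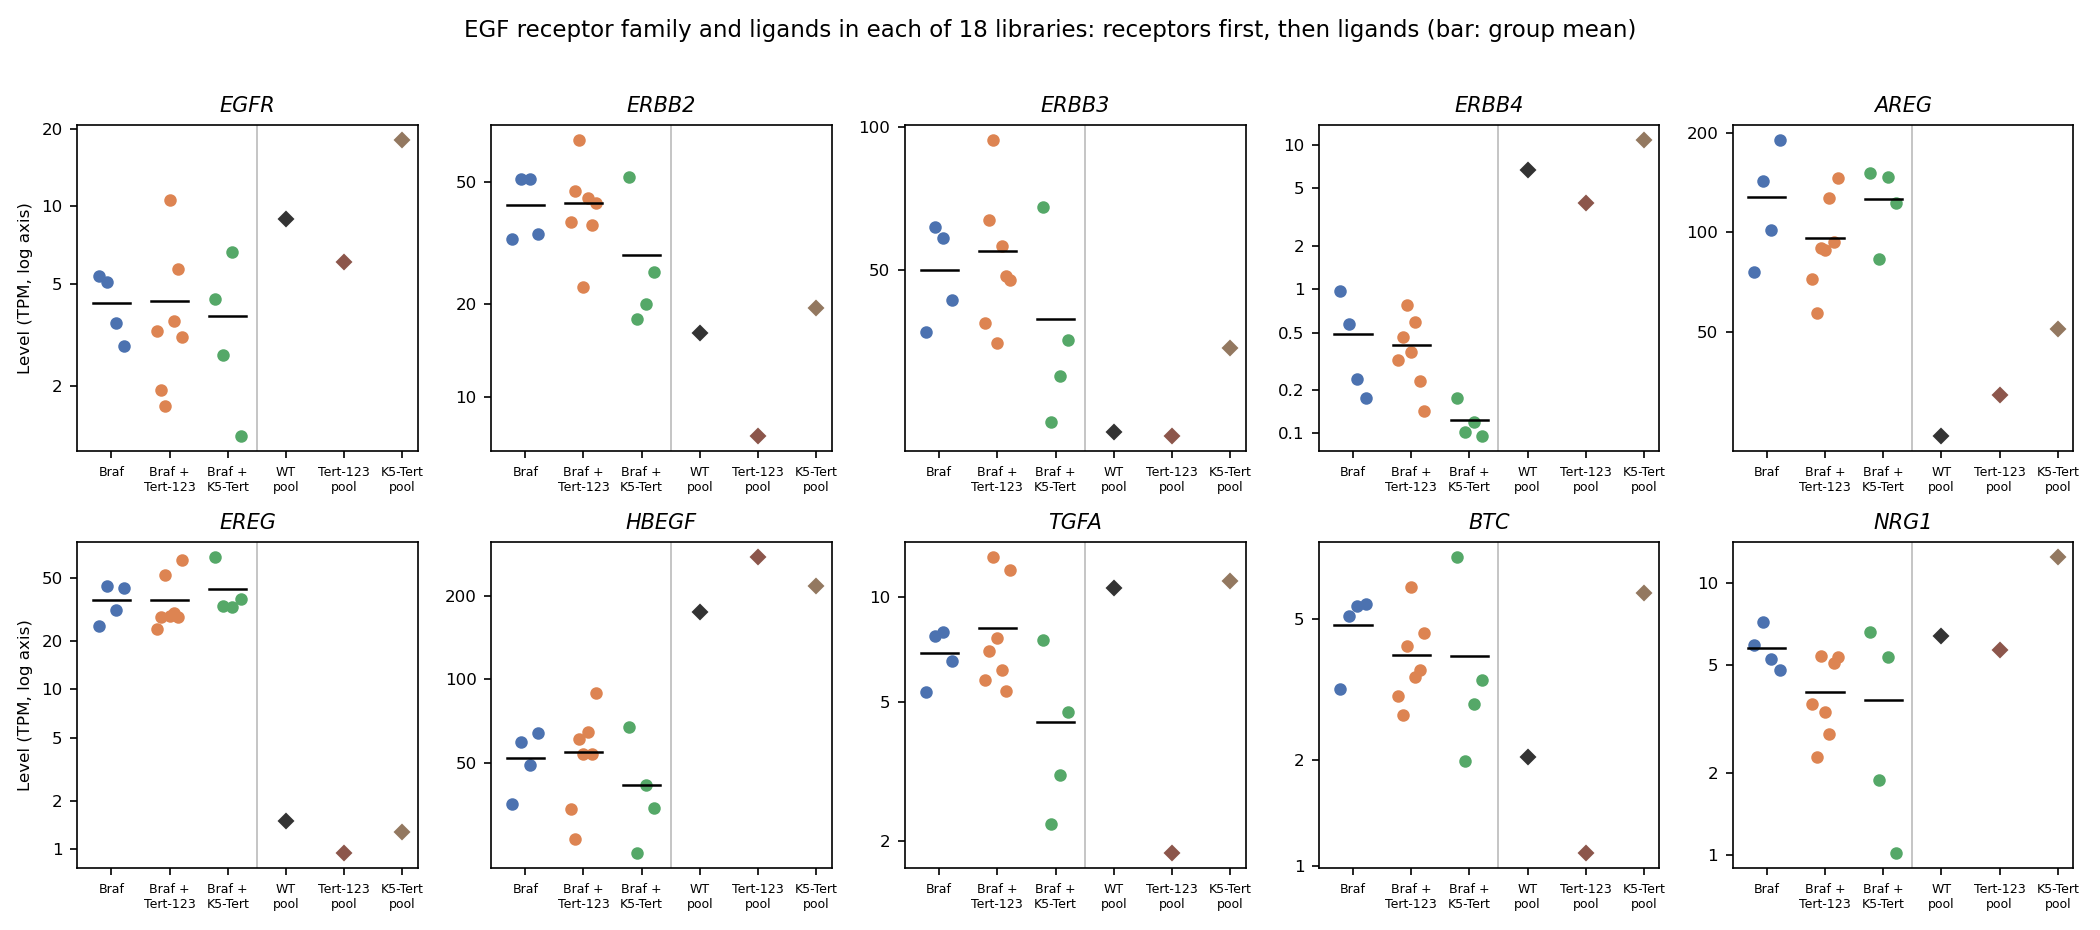
Level of each member (TPM, log axis) in every library: circles are tumours, diamonds are the single pools without the Braf mutation, and bars are means of the tumour groups. EREG and AREG of all 15 tumours lie above every pool, as do 3.54% of the 22693 genes above 0 in any library, and HBEGF and ERBB4 of all 15 lie below every pool, as do 3.72%.

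The first comparison set the Braf mutation against thyroid tissue lacking it, in 1 fit of all 18 libraries that also held the Tert allele. EREG, AREG and ERBB2 were higher with the mutation and HBEGF and EGFR lower, so 5 of the 9 members tested passed the threshold (adjusted p under 0.05, limma), 3 upward and 2 downward. Over all 14711 genes tested, 24.5% passed, 14.2% upward and 10.3% downward (2087 and 1510 genes, but 2214 and 2476 with quantile normalization and 2043 and 2829 after removal of the length trend). Only 3 libraries lacked the mutation, all of them pools, so whatever else sets pools apart from tumours cannot be told apart from the mutation. In such bulk libraries, fewer cells of a type and less RNA per cell cannot be told apart either.

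Among the receptors, ERBB2, the shared partner, was 16.2, 7.44 and 19.5 TPM in the wild-type, Tert-123C>T and K5-Tert pools. In the Braf tumours it was 32.6, 51.0, 51.0 and 33.9 TPM, in the 7 Tert-123 tumours it ran from 22.8 through a median of 42.6 to 68.6 TPM, and in the K5-Tert tumours it was 51.9, 17.8, 20.0 and 25.5 TPM. All tumours but K5-Tert tumour 2 lay above every pool. The fitted difference was 1.37 ± 0.33 on the log2(TPM + 1) scale (SE), with an adjusted p of 0.00437. It rested in part on the Tert-123C>T pool: without that library it was 0.86, with an adjusted p of 0.115.

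ERBB3, the receptor with little kinase activity, was 22.7, 22.2 and 34.2 TPM in the same pools. It was 37.0, 61.5, 58.4 and 43.1 TPM in the Braf tumours, 35.0 to 94.1 TPM (median 48.5) in the Tert-123 tumours and 67.9, 23.8, 29.8 and 35.4 TPM in the K5-Tert tumours. It lay above every pool in 13 of 15 tumours, with K5-Tert tumours 2 and 3 inside the range of the pools. The fitted difference of 0.80 ± 0.30 missed the threshold narrowly (adjusted p = 0.057). It passed in 12 of 31 alternative analyses, among them TMM-type scaling (0.83, adjusted p = 0.0067), quantile normalization (0.87, adjusted p = 0.00749) and a fit without the K5-Tert pool (1.14, adjusted p = 0.0182).

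EGFR, the founding member of the family, had 8.93, 6.06 and 18.2 TPM in the wild-type, Tert-123C>T and K5-Tert pools. The Braf tumours had 5.34, 5.10, 3.51 and 2.85 TPM, the Tert-123 tumours 1.68 to 10.6 TPM (median 3.26) and the K5-Tert tumours 4.35, 2.64, 6.66 and 1.27 TPM. The levels were low throughout, and 13 of 15 tumours lay below every pool. EGFR fell by 1.22 on the log2 scale (SE 0.40, adjusted p = 0.0291). The call was lost without the K5-Tert pool, the highest library (-0.77, adjusted p = 0.211), without the wild-type pool (-1.34, adjusted p = 0.0671), without the filter on low genes (adjusted p = 0.0569) and in the fit of Braf tumours and pools alone (-1.12, adjusted p = 0.0596). The 2 tumours that reached the range of the pools, Tert-123 tumour 4 (10.6 TPM) and K5-Tert tumour 3 (6.66 TPM), were also the 2 with the highest sums of 7 fibroblast genes (2409 and 1707 TPM, against 92.6 to 895 TPM in the other 13 tumours) and of 14 macrophage genes (5645 and 4237 TPM, against 243 to 2534 TPM). In the wild-type, Tert-123C>T and K5-Tert pools the fibroblast sums were 35.3, 330 and 35.5 TPM. The macrophage sums there were 69.9, 343 and 75.7 TPM. The part of such cells in the EGFR level was not tested.

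ERBB4, a receptor for neuregulins, differed most among the receptors. It was 6.69, 3.93 and 10.9 TPM in the wild-type, Tert-123C>T and K5-Tert pools and 0.0954 to 0.967 TPM in the tumours. Every tumour lay below every pool, as did 3.72% of the 22693 genes above 0 in any library. Mean levels in the pools were 13.7-, 9.52- and 88.7-fold those of the tumours with the same Tert allele, ratios that rest on tumour levels under 1 TPM. ERBB4 reached 1 TPM in fewer than 4 libraries and so stood outside the fit. An exact permutation test within Tert alleles, two-sided, gave a difference of -2.52 on the log2(TPM + 1) scale with p = 0.005, the smallest that its 200 arrangements allow. It is 1 of 4 such tests run on this gene, and limma without the filter gave an adjusted p of 8.11e-07.

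Among the ligands, EREG showed the largest difference. EREG, a ligand of EGFR and ERBB4, was 1.501, 0.941 and 1.28 TPM in the wild-type, Tert-123C>T and K5-Tert pools. It was 25.0, 44.5, 31.5 and 43.2 TPM in the Braf tumours, 23.7 to 63.99 TPM (median 28.6) in the Tert-123 tumours and 67.6, 33.4, 32.6 and 36.7 TPM in the K5-Tert tumours. Every tumour lay above every pool, as did 3.54% of the 22693 genes. Group means were 24.0-, 38.7- and 33.3-fold the pool of the same Tert allele. The fitted rise was 4.08 ± 0.28 on the log2 scale (adjusted p = 1.18e-09), and it passed in 31 of 31 alternatives, from 2.74 with a pseudocount of 5 TPM to 4.51.

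AREG, whose gene is a neighbour of EREG in the genome, was already well above 1 TPM without the mutation, at 24.2, 32.2 and 51.1 TPM in the wild-type, Tert-123C>T and K5-Tert pools. It was 76.1, 143, 101 and 191 TPM in the Braf tumours, 57.0 to 146 TPM (median 90.0) in the Tert-123 tumours and 151, 82.8, 147 and 122.9 TPM in the K5-Tert tumours. Again every tumour lay above every pool. The rise was 1.66 ± 0.28 on the log2 scale (adjusted p = 0.000174), and the group means were 5.29-, 2.99- and 2.46-fold the pool of the same Tert allele. It passed in 31 of 31 alternatives (1.37 to 2.19).

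HBEGF, which is also an early response gene of stimulated cells, went the other way. It was 174, 277 and 217 TPM in the wild-type, Tert-123C>T and K5-Tert pools. It was 35.3, 59.2, 49.1 and 63.8 TPM in the Braf tumours, 26.5 to 88.8 TPM (median 53.9) in the Tert-123 tumours and 67.2, 23.5, 41.6 and 34.3 TPM in the K5-Tert tumours. The groups were far apart, with every tumour below every pool. HBEGF fell by 2.22 on the log2 scale (SE 0.31, adjusted p = 1.63e-05), the call held in 31 of 31 alternatives (-2.43 to -1.83), and the pools had 3.36-, 5.08- and 5.21-fold the mean of the matching tumours.

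Immediate-early genes, which stimulated or dissociated cells switch on within minutes, moved with HBEGF. All 13 listed genes passed downward, where 10.3% of all genes did. Their summed level was 490 to 2131 TPM in the tumours against 6741 to 10710 TPM in the pools. FOS, chosen as an example after its values were seen, had 1424, 1453 and 2608 TPM in the wild-type, Tert-123C>T and K5-Tert pools and at most 388 TPM in a tumour. Of the tumours, Tert-123 tumour 7 had the highest HBEGF (88.8 TPM) and the highest immediate-early sum (2131 TPM). The next highest sums, in K5-Tert tumours 3 and 4 (1900 and 1293 TPM), came with HBEGF below the tumour mean (41.6 and 34.3 TPM). The part of these genes' common shift in the HBEGF difference was not tested.

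TGFA, BTC and NRG1 did not pass on the deposited scale. TGFA was 10.6, 1.84 and 11.1 TPM in the wild-type, Tert-123C>T and K5-Tert pools, 5.36, 7.74, 7.95 and 6.55 TPM in the Braf tumours, 5.37 to 13.04 TPM (median 6.98) in the Tert-123 tumours and 7.52, 2.23, 3.10 and 4.67 TPM in the K5-Tert tumours. All 7 Tert-123 tumours lay above their own pool, while all 4 Braf and all 4 K5-Tert tumours lay below theirs, and the fitted difference was -0.02 (95% interval -0.84 to 0.80, adjusted p = 0.974).

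BTC was 2.04, 1.09 and 5.93 TPM in the wild-type, Tert-123C>T and K5-Tert pools and 1.99 to 7.52 TPM (median 3.59) in the 15 tumours, a difference of 0.53 (95% interval -0.16 to 1.22, adjusted p = 0.258). NRG1 was 6.39, 5.69 and 12.5 TPM in the pools and 1.02 to 7.18 TPM (median 5.07) in the tumours, a difference of -0.76 (95% interval -1.51 to -0.02, adjusted p = 0.125). BTC overlapped the pools in most tumours, and NRG1 lay below every pool in 12 of 15. The K5-Tert pool had the highest level of both, and without it BTC passed upward (1.07, adjusted p = 0.0247). NRG1 passed downward with TMM-type scaling (-0.75, adjusted p = 0.0341), with quantile normalization (-0.79, adjusted p = 0.0185) and after removal of the length trend (-0.85, adjusted p = 0.0127).

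**Figure D2:**
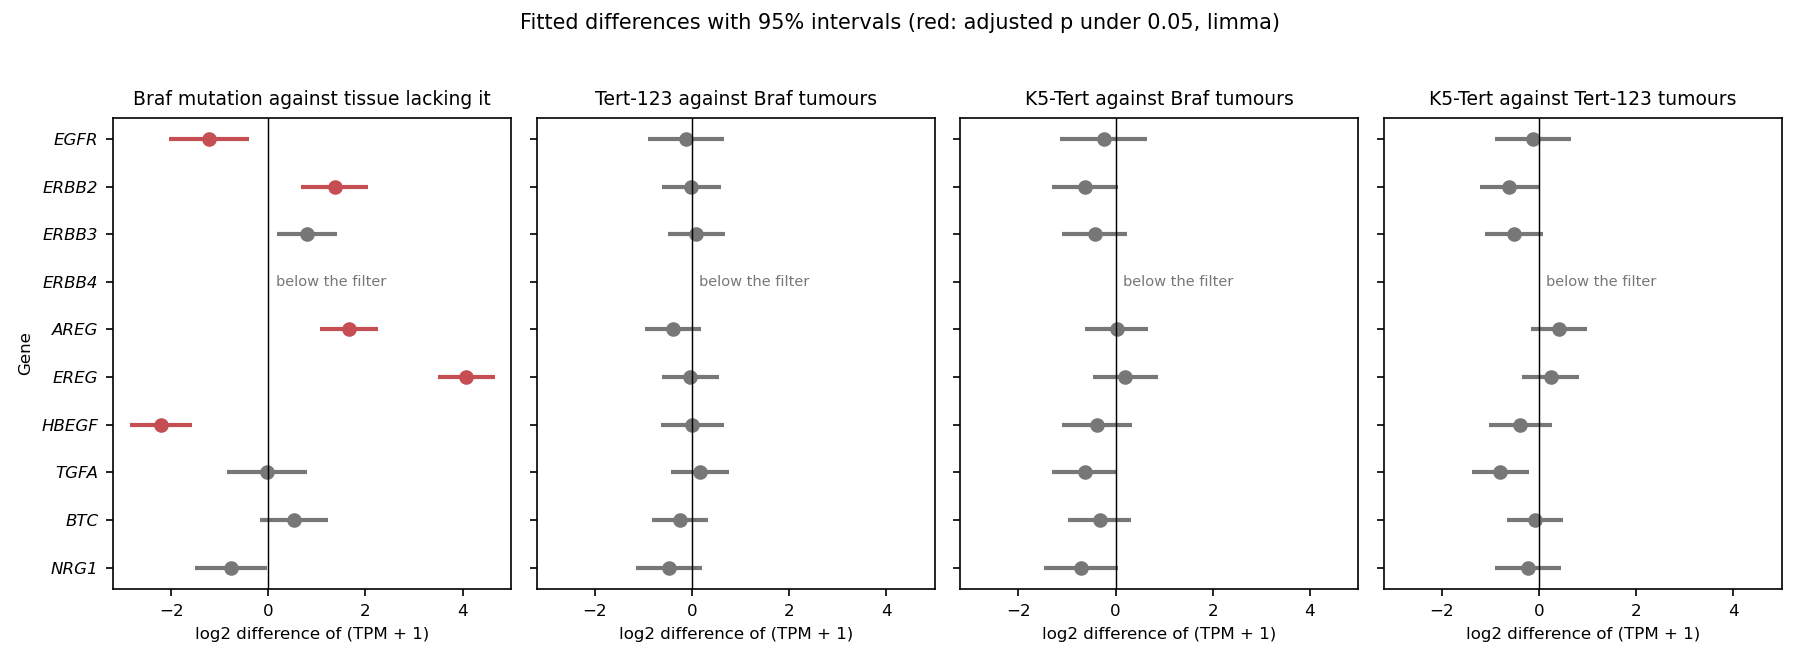
Fitted log2 differences of (TPM + 1) with 95% intervals for the 9 members in the fit, in 4 comparisons; red marks an adjusted p under 0.05. With the Braf mutation EREG (4.08), AREG (1.66) and ERBB2 (1.37) lie to the right and HBEGF (-2.22) and EGFR (-1.22) to the left, and no member is red in the 3 comparisons between tumours.

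The make-up of the ligand RNA differed more than its total. The 6 ligands together came to 216 ± 63.97 TPM in the tumours (SD, n = 15) and 219, 319 and 299 TPM in the wild-type, Tert-123C>T and K5-Tert pools, and these ranges overlapped. HBEGF made up 72.6% to 86.9% of the ligand RNA in the pools and 16.1% to 28.7% in the tumours. AREG made up 10.1% to 17.1% and 40.0% to 63.2%, and EREG 0.295% to 0.686% and 12.8% to 23.0%. For each of these 3 ligands, the tumours and the pools did not overlap. The shares are parts of the same sum, so these are not 3 separate results. The ratio of AREG to HBEGF was 0.116 to 0.236 in the pools and 1.48 to 3.59 in the tumours.

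The receptor RNA also differed in make-up. ERBB2 was 18.8% to 29.7% of the 4 receptors in the pools and 33.2% to 46.8% in the tumours. ERBB4 was 9.91% to 13.2% and 0.142% to 1.27%. ERBB3 had the largest share in each library, 41.3% to 56.0% in the pools and 48.7% to 57.0% in the tumours. The shares follow from the same levels as the fitted differences and were not tested separately.

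**Figure D3:**
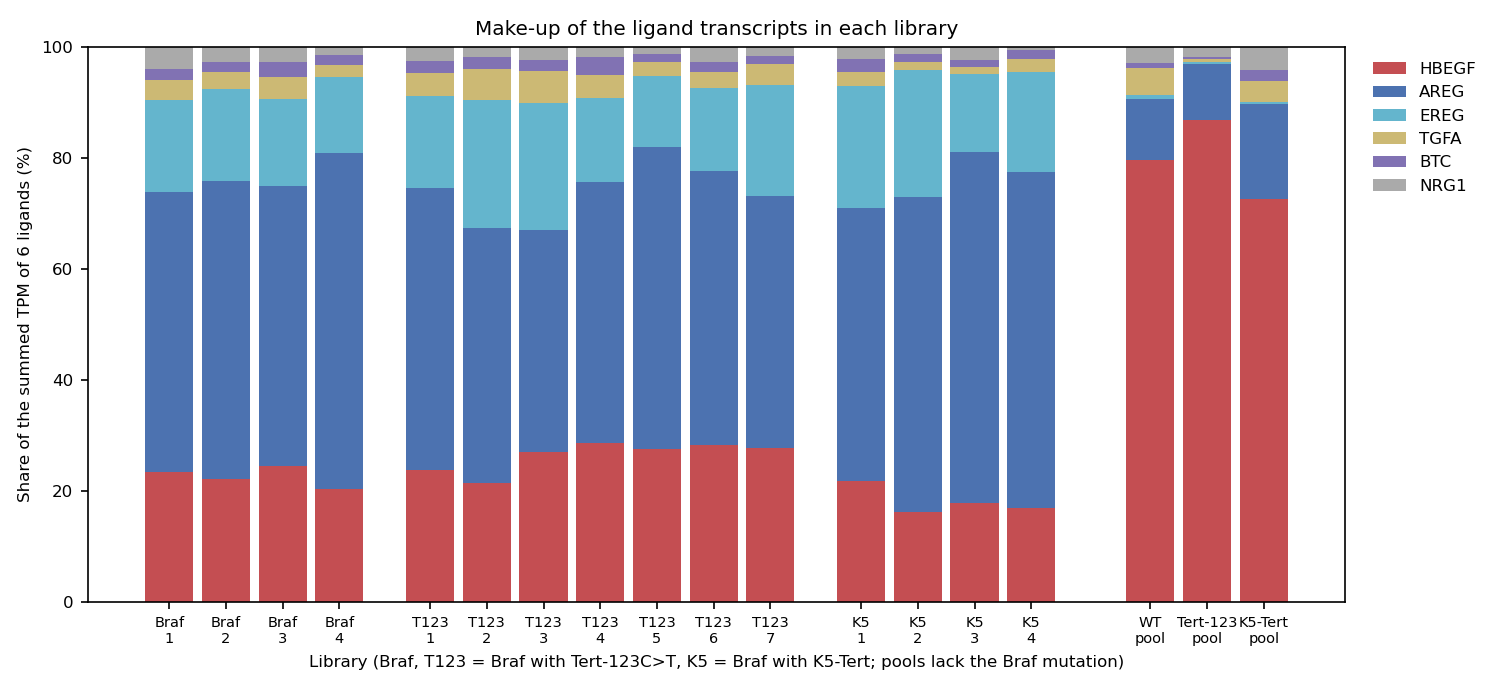
Share (%) of each of 6 ligands in their summed TPM, 1 bar per library; bars are grouped as Braf, Tert-123 and K5-Tert tumours and the 3 pools. HBEGF fills 72.6% to 86.9% of the pool bars and at most 28.7% of a tumour bar, where AREG and EREG fill most of the rest.

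Other genes of the pathway, in lists chosen with earlier results of these data known, were read from the same fit. Over all genes tested the median difference was 0.13, and 14.2% passed upward and 10.3% downward. The 5 remaining ligands, EGF, EPGN, NRG2, NRG3 and NRG4, summed to at most 4.97 TPM in any library, and of the 2 that could be tested, EGF and NRG2, 0 passed. Of 10 genes of ligand shedding, 3 passed upward and 1 downward (median 0.48). ADAM8 (2.20 ± 0.50), ADAM12 (1.04 ± 0.29) and ADAM19 (1.66 ± 0.51), all metalloproteases, were higher, and TIMP3, an inhibitor of such proteases, was 31.3 to 154 TPM in the tumours and 329 to 407 TPM in the pools (-2.49 ± 0.35, adjusted p = 2.18e-05). ADAM17, the main sheddase of AREG and HBEGF, differed by -0.02 ± 0.26 (adjusted p = 0.968) and was named for that role, after its value was seen.

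Of 16 genes that restrain or turn over the receptors, 1 passed upward and 3 downward (median -0.14), beside 14.2% and 10.3% of all genes. LRIG3 (-2.63 ± 0.31) and LRIG1 (-1.37 ± 0.27), membrane proteins that dampen the receptors, and ERRFI1 (-1.70 ± 0.25), which binds and inhibits the kinase domain of EGFR, were lower. ERRFI1 was 29.2 to 66.4 TPM in the tumours and 109 to 238 TPM in the pools, without overlap. STUB1, a ubiquitin ligase, was higher (0.74 ± 0.23).

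Of 24 adaptors and first signalling steps, 5 passed upward and 2 downward (median 0.07), beside 14.2% and 10.3% of all genes. GRB7, an adaptor that binds ERBB2, was 1.62 to 7.97 TPM in the pools and 10.1 to 48.6 TPM in the tumours (2.28 ± 0.36). SHC1 (1.06 ± 0.22), an adaptor to Ras, and the kinase SRC (1.09 ± 0.26) were higher. PIK3R1 (-1.23 ± 0.31), the regulatory subunit of PI3 kinase, was lower.

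Of 18 genes controlled by ERK, 10 passed upward and 5 downward (median 0.99), beside 14.2% and 10.3% of all genes. ETV4, a PEA3-type factor, was listed at 0 in all 3 pools and at 15.7 to 70.2 TPM in the tumours. CCND1, cyclin D1 (3.92 ± 0.27), the phosphatase gene DUSP4 (3.17 ± 0.29) and ETV1 (2.96 ± 0.34) were higher. The 5 lower genes were EGR1, FOSL1, PHLDA1, MYC and IER3, named after their values were seen, and EGR1 is also on the immediate-early list.

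Of 9 partners and co-receptors, 6 passed upward and 0 downward (median 1.68), beside 14.2% and 10.3% of all genes. SDC1, a heparan sulfate proteoglycan, was 4.69 to 6.65 TPM in the pools and 43.9 to 232 TPM in the tumours (4.07 ± 0.33). GPC1 (3.21 ± 0.43), another proteoglycan, CD44 (1.68 ± 0.29), which can carry HBEGF, and MUC1 (2.25 ± 0.46) were higher.

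Markers of other cells moved with the same comparison, where 14.2% of all genes passed upward and 10.3% downward. Of 13 macrophage genes tested, 8 were higher in the tumours, with sums over the 14 listed of 243 to 5645 TPM against 69.9 to 343 TPM in the pools. Of 7 fibroblast genes, 4 were higher (sums of 92.6 to 2409 against 35.3 to 330 TPM). Of the listed macrophage genes, AIF1 was at 0 in the wild-type pool, TYROBP, ITGAM and CD163 in the K5-Tert pool and FCGR1 in both. Of the listed fibroblast genes, PDGFRA was at 0 in the K5-Tert pool and LUM in both. Of 7 endothelial genes, 6 were lower (14.4 to 116 against 102 to 965 TPM), and both C cell genes were lower (1.21 to 32.8 against 239 to 2058 TPM). Of 11 thyrocyte genes tested, 9 were lower, while 0 of 4 general epithelial genes passed (1122 to 2854 against 1176 to 2249 TPM). Among the other lists, 1 of 8 T cell genes was higher, 1 of 5 pericyte genes higher and 1 lower, 2 of 5 basal keratinocyte genes lower, 2 of 4 nerve genes lower and the 1 parathyroid gene tested lower. The part of these cells in the members' differences was not tested.

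**Figure D4:**
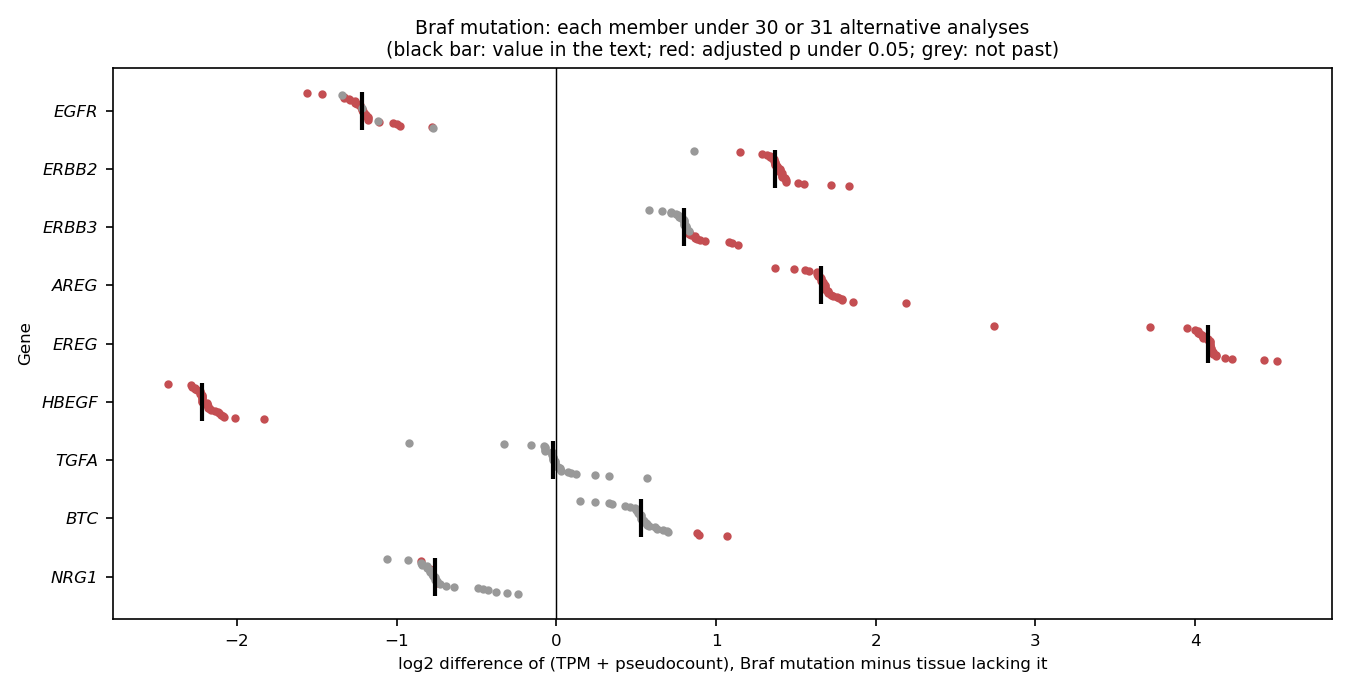
Difference of each member in the fit between libraries with and without the Braf mutation (log2 scale) under 30 or 31 alternative analyses, 1 dot each, with the value given in the text as a black bar; red dots have an adjusted p under 0.05. EREG, AREG and HBEGF are red in all 31, and ERBB3 is red in 12 and ERBB2 in 30.

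The next comparisons asked whether the members differed between tumours with and without the Tert alleles; all 3 share tumour groups. Between Tert-123 and Braf tumours, 0 of 9 members passed, as did 0% of all 14390 genes tested by limma, where 238 genes had an unadjusted p under 0.05. The members' median difference was -0.04 and that of all genes -0.01. The differences were small for EREG (-0.04, 95% interval -0.62 to 0.55), HBEGF (0.01, -0.63 to 0.65), ERBB2 (-0.01, -0.62 to 0.59) and ERBB3 (0.09, -0.50 to 0.68). NRG1 (-0.48, 95% interval -1.16 to 0.20) and AREG (-0.38, -0.96 to 0.19) had the largest, both with an adjusted p of 0.9998, and 4 of the 7 Tert-123 tumours had less NRG1 than any Braf tumour. The intervals are wide, so the comparison does not show that the levels were equal. For ERBB4, outside the fit, the exact permutation test, two-sided, gave p = 0.736 for a difference of -0.06 on the log2(TPM + 1) scale.

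Between K5-Tert and Braf tumours, 0 of 9 members passed, where 16.1% of all genes did, 0.417% upward and 15.7% downward. The K5-Tert tumours were lower over the whole table on this scale, with a median of -0.49 over all genes, 60 higher and 2263 lower. TMM-type scaling gave a median of -0.03, with 502 higher and 505 lower. The number lower also fell to 205 with XIST as a covariate and to 323, 344 and 420 without Braf tumour 3, K5-Tert tumour 4 or K5-Tert tumour 2, and rose to 5221 without K5-Tert tumour 1. The members' median was -0.38 as deposited and 0.16 with TMM-type scaling, and 0 of 9 passed under either.

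On the deposited scale the members with the lowest adjusted p were TGFA (-0.64 ± 0.32, adjusted p = 0.155), NRG1 (-0.72 ± 0.37, adjusted p = 0.163) and ERBB2 (-0.63 ± 0.33, adjusted p = 0.17). K5-Tert tumour 1 differed from the other 3 in ERBB2 and TGFA: it had 51.9 TPM of ERBB2 and 7.52 TPM of TGFA, within or just above the Braf tumours, whereas tumours 2, 3 and 4 had less of both than any Braf tumour. It was also the only K5-Tert tumour with MALAT1 in the range of the Braf tumours, at 5902 TPM. Without tumour 1, ERBB2 (-0.95, adjusted p = 0.0194), TGFA (-0.89, adjusted p = 0.03) and NRG1 (-1.01, adjusted p = 0.0326) passed downward, 3 of 9 members where 36.5% of all genes did. NRG1 was within the range of the Braf tumours in K5-Tert tumours 1 and 3. The part of the MALAT1 difference in this was not tested.

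AREG and EREG were the 2 members whose difference was not below 0. AREG was 126 ± 31.4 TPM in the K5-Tert tumours and 128 ± 50.2 TPM in the Braf tumours (SD, n = 4 each), a difference of 0.02 (95% interval -0.62 to 0.67). EREG was 42.6 ± 16.8 and 36.0 ± 9.41 TPM, a difference of 0.20 (95% interval -0.46 to 0.87). The K5-Tert tumours overlapped the Braf tumours in both ligands.

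ERBB4 was 0.176, 0.101, 0.119 and 0.0954 TPM in the K5-Tert tumours and 0.967, 0.574, 0.237 and 0.177 TPM in the Braf tumours. All 4 K5-Tert tumours lay below every Braf tumour, as did 15.9% of the 22693 genes. The exact permutation test, two-sided, gave p = 0.0286, the smallest that 70 arrangements allow, for a difference of -0.38 on the log2(TPM + 1) scale. limma without the filter gave an adjusted p of 0.181.

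Between K5-Tert and Tert-123 tumours, 0 of 9 members passed as well, where 21% of all genes did, 0.493% upward and 20.6% downward (medians -0.24 for the members and -0.48 for all genes). TGFA came nearest: 7.52, 2.23, 3.10 and 4.67 TPM in the K5-Tert tumours against 5.37 to 13.04 TPM (median 6.98) in the Tert-123 tumours. Of the 4 K5-Tert tumours, 3 lay below every Tert-123 tumour, and the difference was -0.80 ± 0.28 (adjusted p = 0.0519). ERBB4, outside the fit, was 0.0954 to 0.176 TPM in K5-Tert and 0.143 to 0.772 TPM in Tert-123 tumours. The exact permutation test, two-sided, gave p = 0.0182 for a difference of -0.32 on the log2(TPM + 1) scale. For the same difference, limma without the filter gave an adjusted p of 0.188. With TMM-type scaling, AREG (0.99, adjusted p = 0.0186) and EREG (0.81, adjusted p = 0.0327) passed upward in K5-Tert tumours, where 4.1% of all genes did. After removal of the length trend only AREG passed (0.86, adjusted p = 0.0432), where 2.24% of all genes did so upward. With quantile normalization 0 members passed. The ratio of AREG to HBEGF on the deposited scale was 2.25 to 3.59 in K5-Tert tumours, 1.48 to 2.16 in Tert-123 tumours and 2.06 to 2.99 in Braf tumours. The first 2 groups did not overlap. A single factor per library leaves this ratio unchanged, but quantile normalization and removal of the length trend do not. The ratio was not tested, and no share over all gene pairs was computed.

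Other genes of the pathway were also compared between K5-Tert and Braf tumours, and most of them did not pass. Of all genes, 15.7% passed downward and 0.417% upward, or 3.51% and 3.49% with TMM-type scaling. Of 10 shedding genes 3 passed downward, RHBDF2 (-0.97 ± 0.28) and RHBDF1 (-0.89 ± 0.27), which escort ADAM17 to the cell surface, and ADAM19 (-1.63 ± 0.54). Of 18 ERK-controlled genes 3 passed downward, the PEA3-type factors ETV4 (-1.07 ± 0.26), ETV1 (-1.23 ± 0.33) and ETV5 (-0.88 ± 0.24), and 1 upward, IER3 (0.85 ± 0.28). With TMM-type scaling 0 genes of either list passed downward. Of 13 immediate-early genes 5 passed upward (8 with TMM-type scaling), among them NR4A1 (2.74 ± 0.44), FOSB (3.21 ± 0.60) and ATF3 (2.62 ± 0.61), while HBEGF differed by -0.38 (95% interval -1.10 to 0.35). Of 16 genes that restrain or turn over the receptors 2 passed downward, RNF41 (-0.80 ± 0.22) and USP8 (-0.81 ± 0.26), and of 24 adaptors 3, with 0 downward in both lists under TMM-type scaling. Of 9 partners and co-receptors 0 passed.

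Markers of other cells differed between these groups as well, where 0.417% of all genes passed upward and 15.7% downward. With TMM-type scaling, 3.49% of all genes passed upward and 3.51% downward. Of 5 pericyte and smooth muscle genes 3 were higher in K5-Tert than Braf tumours, with sums of 34.6 to 154 against 13.3 to 26.5 TPM. The thyroid transcription factors HHEX (-1.37 ± 0.30), NKX2-1 (-1.31 ± 0.30) and PAX8 (-1.27 ± 0.39) were lower, 3 of 11 thyrocyte genes (1 of 11 with TMM-type scaling; summed level 412 to 563 against 633 to 802 TPM), while 0 of 7 fibroblast genes and 1 of 13 macrophage genes passed. The part of these cells in the members' levels was not tested.

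Across the 15 tumours ERBB2 and ERBB3 varied together. Their ratio, ERBB3 over ERBB2, stayed between 1.04 and 1.54, and the correlation of log2(TPM + 1) was r = 0.96 (Spearman rho = 0.97, n = 15). Without the 2 tumours farthest from the median in ERBB2 (Tert-123 tumour 3 and K5-Tert tumour 2) r was 0.94, within the 7 Tert-123 tumours 0.92, and after each library's median was subtracted 0.93. The points share their libraries and scaling, so these values are a description. Other pairs were also closely related: ERBB2 and TGFA had r = 0.81 (rho = 0.76), ERBB3 and TGFA r = 0.80 (rho = 0.71) and HBEGF and BTC r = 0.75 (rho = 0.76). ERBB2 and EGFR had r = -0.29 (rho = -0.21), ERBB2 and AREG r = 0.02 (rho = 0.11) and AREG and EREG r = 0.63 (rho = 0.70), all over the same 15 tumours.

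For the 5 members with a mean of at least 10 TPM, the 3 most alike of 6594 genes were sought by the same measure. ERBB3 was second for ERBB2 (0.96), after ZFP7 (0.96) and before DTNB (0.96). ERBB2 was first for ERBB3, followed by BCAR1 (0.96) and H6PD (0.95). HBEGF was most like TMOD3 (0.92), RNF11 (0.92) and SERINC1 (0.91), and EREG most like COPS2 (0.85), PPP1CB (0.84) and GEMIN7 (0.84). The nearest genes to AREG were HSPB8 (0.78), CPE (0.77) and CCNG1 (0.76), so AREG followed any other gene less closely than ERBB2 and ERBB3 followed each other.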

How the data were processed

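Per the labels, each library came from 9000 to 20000 YFP+ cells, with 14 PCR cycles for the small amounts of messenger RNA, and reads were paired 100 bp. The deposited table, named as normalized counts, was taken as TPM because each of its 18 columns sums to 1000000 and low values show no common step; no label or header states the unit. Aligner, counting tool and genome build were not given in the sources used here, and the depth is unknown. The 26 entries whose names had become dates (at most 0.0455% of a library's TPM) were left out.

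Genes reaching 1 TPM in at least 4 libraries entered limma 3.58.1 (R 4.3.3, mean-variance trend) on the log2(TPM + 1) scale, two-sided, with Benjamini-Hochberg adjustment over all genes tested and a threshold of 0.05. A filter at 10 TPM, used in an earlier analysis of the table, would have left low receptors and ligands untested. The 15 tumours were fitted together (12 residual degrees of freedom). For the Braf mutation, all 18 libraries were fitted with terms for the mutation and the Tert allele (14 degrees of freedom). ERBB4, below the filter, had exact permutation tests. The methods were tested on simulated data. For limma, these were made by shuffling residuals within each gene, so shifts shared by the genes of a library were not simulated.

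The members and lists were chosen with earlier results of these data known. Named genes are the 10 members, up to 4 genes per list by smallest p where a list had calls (exceptions, such as ADAM17, FOS and genes used as markers or listed at 0, were chosen after their values were seen), and the 3 genes most alike each member of at least 10 TPM in the mean over tumours. The names NRDC, TRAC and TRBC2 from the lists did not match the table. Alternatives were pseudocounts of 0.5 and 5 TPM, filters of 10 TPM or none, TMM-type scaling (trimming 30% of ratios, 5% of levels), quantile normalization, TPM rescaled without Rpph1 (43.7% to 68.8% of a library), removal of each library's mean and of its trend with transcript length (GENCODE M21), Xist as a covariate, library weights, fits restricted to the groups of a comparison, and omission of each library in turn. Leaving out K5-Tert tumours 2 and 4, or 2, 3 and 4, was chosen after seeing the data. Promoter sequences are from RefSeq (GRCm38.p6).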

Additional observations from a re-analysis of the deposited data

Results flagged for a closer look

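EREG in K5-Tert tumour 1, at 67.6 TPM, lay far above the other 3 K5-Tert tumours (32.6 to 36.7 TPM). It was the single such library in 30 member and group combinations examined, and 1 in that many can arise by chance.

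TGFA stood on opposite sides of the pools. All 7 Tert-123 tumours were above the Tert-123C>T pool (1.84 TPM), whereas all 4 Braf tumours were below the wild-type pool (10.6 TPM), so that the log2 differences from the matching pool were 2.19 apart. All 4 K5-Tert tumours were below the K5-Tert pool (11.1 TPM), 2.89 apart from the Tert-123 tumours. Each rests on 1 pool library, and neither difference was tested. The Tert-123C>T pool also had the highest sums of parathyroid, T cell, C cell and endothelial genes of all 18 libraries (633, 195, 2058 and 965 TPM). Its fibroblast sum was 330 TPM, against 35.3 and 35.5 TPM in the wild-type and K5-Tert pools. The part of these cells in its low TGFA was not tested.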

How the results depend on the processing

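No paired analysis was possible because the labels carry no replicate numbers that groups share. Every alternative listed in the methods was run, and 0 member results changed sign with a call on either side. For members without a call, signs were not fixed: TGFA changed sign in 11 of 31 alternatives for the Braf mutation, and HBEGF in 10 of 26 for Tert-123 against Braf tumours. For the Braf mutation, the calls of EREG, AREG and HBEGF held in 31 of 31 alternatives and that of ERBB2 in 30. Members higher with the mutation rose from 3 to 5 with library weights and without K5-Tert tumours 2, 3 and 4, and ran from 2 to 5 when single libraries were left out. Over all genes, 30.8% were higher with library weights and 23.5% without those 3 tumours, against 14.2%. With TMM-type factors, quantile normalization, rescaling without Rpph1 and removal of the length trend, 4 were higher and 3 lower, the third being NRG1, or ERBB4 in the rescaled table where it could be tested. Members lower fell from 2 to 1 with the filter at 10 TPM, where EGFR was not tested, and in the fit of only the groups compared, and ran from 1 to 2 when single libraries were left out. Members lower in K5-Tert than Braf tumours rose from 0 to 3 with library weights and ran from 0 to 3 when single libraries were left out, 3 without K5-Tert tumour 1. Over all genes, 36.9% were lower with library weights and 36.5% without that tumour, against 15.7%. Against Tert-123 tumours, members lower rose from 0 to 1 with a pseudocount of 0.5 TPM and to 1 with library weights, and ran from 0 to 3 leaving out single libraries (1 without Tert-123 tumour 1 or 6, 3 without K5-Tert tumour 1, where 40.7% of all genes were lower, against 20.6%). Of all genes, 21.7% were lower with that pseudocount, 28.3% with library weights, and 24.1% and 15.8% without Tert-123 tumour 1 or 6. Members higher rose from 0 to 2 with TMM-type factors and to 1 after removal of the length trend. Over all genes, 4.1% and 2.24% were higher in these settings, against 0.493%. All genes lower in K5-Tert tumours ran from 323 to 5221 against Braf tumours and from 419 to 5828 against Tert-123 tumours when single libraries were left out, were 205 and 1745 with XIST as a covariate, 856 and 1175 in fits of only the groups compared, and 13 and 9 without K5-Tert tumours 2 and 4. For the Braf mutation, all genes higher ran from 1225 to 2911 and all genes lower from 1021 to 1622 when single libraries were left out. Apart from the filter, the causes were not tested. Depth is unknown, so the precision of low members such as ERBB4 cannot be given.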
